A study of Mus musculus with 12 samples.

Results

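Spleens of 3 mice that carry a moving DNA transposon were compared with spleens of 3 wild-type mice over every gene of the deposited count table, 32121 genes in all. All 12 libraries of the series entered, 2 pieces from each of 6 spleens, and for each spleen the 2 columns of counts were added, so that the animal was the replicate (n = 3 against 3). The SB mice were labelled VEC-Cre;SB Transposase;onc2: VEC-Cre is a Cre recombinase driven in endothelium by the VE-cadherin promoter, the Sleeping Beauty (SB) transposase moves transposons, and onc2 is a transposon that can switch on or disrupt genes where it lands. The control mice were labelled WT and carry none of the 3 elements, so the effects of Cre, transposase and transposon cannot be told apart. Both genotypes were of strain C57BL/6, no treatment is named, and no age is named in the labels. Animals F270, F262 and M267 are called SB animals 1, 2 and 3, and Ctrl1, Ctrl2 and Ctrl3 are control animals 1, 2 and 3. Nothing says that the 3 SB spleens are alike in cell makeup, and each stands for a single animal. Levels given as 3 values in a row belong to animals 1, 2 and 3 in that order, and CPM are counts scaled to a common library size after normalisation.

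Libraries held 14320833 to 22031026 counts, and animals 30692103 to 39168970. SB animals 1 and 2 differed from the controls in sex-linked RNA: Xist, the X-inactivation RNA, stood at 2271, 1002 and 1.67 CPM in SB and 2.44, 2.404 and 1.49 CPM in controls, and the Y-linked Ddx3y at 0.256, 0.182 and 96.1 CPM in SB and 67.4, 75.98 and 60.7 CPM in controls. SB animal 3 had low Xist and high Ddx3y, as the controls had. Sex thus partly coincides with genotype, and the 2 cannot be fully told apart in the results below. The whole spleen also differed in blood cell markers. All 18 markers of B cells were called lower, and their summed level was 180 to 382 CPM in SB against 13200 to 14800 in controls. T cell markers summed to 56.1 to 482 CPM against 1320 to 1540. Granulocyte and precursor markers summed to 694 to 2770 CPM against 175 to 423, and megakaryocyte markers to 2000 to 7110 against 441 to 1030. Only 5 of 16 granulocyte and precursor markers were called higher, with 0 lower. By that list's median log2 difference, SB animal 1 lay below the controls (-0.95), unlike animals 2 (3.52) and 3 (2.58). Megakaryocyte markers, 4 of 14 called higher and 0 lower, had positive medians for each SB animal (0.97, 1.29 and 1.49). Summed erythroid markers overlapped, with 3840 to 44500 CPM in SB and 21200 to 45800 in controls. Of the 15 tested erythroid markers, however, 4 were called higher and 0 lower, with a median log2 change of 2.08. That median was 0.09, 2.85 and 1.96 in SB animals 1, 2 and 3. In a bulk library, fewer cells of a type and less RNA per cell cannot be told apart. The part of these markers in any result below was not tested.

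Cells that divide copy their DNA in S phase and separate the copies in mitosis. The genes for copying are largely switched by E2F factors, which the retinoblastoma family holds back in resting cells. Genes for mitosis are switched later by the MuvB complex with B-Myb and FoxM1, through a promoter element called CHR and often through CCAAT boxes bound by NF-Y. A wild-type adult spleen is mostly made of resting lymphocytes, with some red cell formation in mice, so programmes of division, biosynthesis and lymphocyte signalling are all visible in its RNA.

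Promoters are shown first, because the 2 largest groups of higher genes carry different letters there. The sequences are RefSeq promoters on build GRCm38.p6, each the 150 bases just before the start site on the gene's strand, chosen because the gene was called higher, the letters lie in that stretch and the start site is within 500 bases of the gene's annotated 5′ end. Capitals mark an E2F match (TTTCCCGC or TTTGGCGC), a CHR match (TTTGAA) or a CCAAT box, each on either strand. The first 4 promoters belong to DNA copying genes with an E2F match. Pola1 encodes the catalytic subunit of polymerase alpha (chrX:93632156-93632305, minus strand), Mcm5 and Mcm6 are subunits of the replicative helicase (chr8:75109359-75109508, plus strand, and chr1:128359706-128359855, minus strand), and Cdc6 loads that helicase (chr11:98908001-98908150, plus strand).
Pola1: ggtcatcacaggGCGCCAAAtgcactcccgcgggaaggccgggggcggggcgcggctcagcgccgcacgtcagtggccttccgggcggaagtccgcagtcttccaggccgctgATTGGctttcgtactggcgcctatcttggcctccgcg
Mcm5: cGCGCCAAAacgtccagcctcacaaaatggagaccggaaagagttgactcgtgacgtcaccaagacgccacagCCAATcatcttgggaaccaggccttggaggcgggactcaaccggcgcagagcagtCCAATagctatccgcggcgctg
Mcm6: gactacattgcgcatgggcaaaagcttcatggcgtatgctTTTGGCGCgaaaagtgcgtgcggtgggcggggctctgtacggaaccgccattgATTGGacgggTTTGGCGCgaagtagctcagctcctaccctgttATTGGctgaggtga
Cdc6: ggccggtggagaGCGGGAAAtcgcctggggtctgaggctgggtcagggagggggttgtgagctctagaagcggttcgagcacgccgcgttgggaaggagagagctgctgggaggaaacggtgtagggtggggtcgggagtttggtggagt
The next 4 promoters belong to mitotic genes with a CHR match. Ckap5 is a microtubule polymerase (chr2:91526612-91526761, plus strand), Kif11 the motor that pushes spindle poles apart (chr19:37376232-37376381, plus strand), Cdc20 the activator of the anaphase-promoting complex (chr4:118437344-118437493, minus strand) and Top2a the topoisomerase that untangles sister chromatids (chr11:99024190-99024339, minus strand).
Ckap5: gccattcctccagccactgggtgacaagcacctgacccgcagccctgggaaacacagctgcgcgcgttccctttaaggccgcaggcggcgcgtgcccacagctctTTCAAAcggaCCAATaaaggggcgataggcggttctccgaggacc
Kif11: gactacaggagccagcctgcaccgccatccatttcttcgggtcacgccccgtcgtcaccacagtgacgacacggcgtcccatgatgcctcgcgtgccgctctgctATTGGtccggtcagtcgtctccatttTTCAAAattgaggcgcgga
Cdc20: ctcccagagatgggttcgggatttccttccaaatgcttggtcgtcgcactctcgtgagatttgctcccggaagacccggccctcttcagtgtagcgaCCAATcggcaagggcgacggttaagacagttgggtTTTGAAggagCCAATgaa
Top2a: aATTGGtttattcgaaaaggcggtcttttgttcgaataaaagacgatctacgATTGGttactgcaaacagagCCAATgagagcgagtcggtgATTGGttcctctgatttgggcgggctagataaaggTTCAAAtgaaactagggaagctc
Mcm6 has 2 E2F matches, while in Kif11, Cdc20 and Top2a the CHR match begins 19, 18 and 23 bases before the start site.

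Over the 12014 tested genes with a RefSeq promoter, taken as 300 bases from 250 before to 50 after the start, an E2F match stood in 2.87%, a CHR match in 12.4% and a CCAAT box in 38.0%. Of 40 promoters of DNA copying genes, 13 held the E2F match (32.5%) and 6 the CHR match (15%). The order was the other way round in 39 promoters of mitotic genes, where 29 held the CHR match (74.4%) and 2 the E2F match (5.13%). CCAAT boxes stood in 57.5% and 69.2% of these lists. Some RefSeq start sites lie away from the annotated 5′ end of the gene: with promoters kept only where the site is within 500 bases of the annotated 5′ end, a choice made after seeing the data, 12 of 38 copying promoters held the E2F match and 25 of 35 mitotic ones the CHR match. Among all genes with an E2F match 16.2% were called higher, against 9.21% of those without it, and outside the cell division lists 10.7% against 8.35%. For CHR the shares were 11.7% and 9.10%, and outside those lists 8.42% and 8.41%. These are matches of letters and say nothing of which factor was bound.

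**Figure D1:**
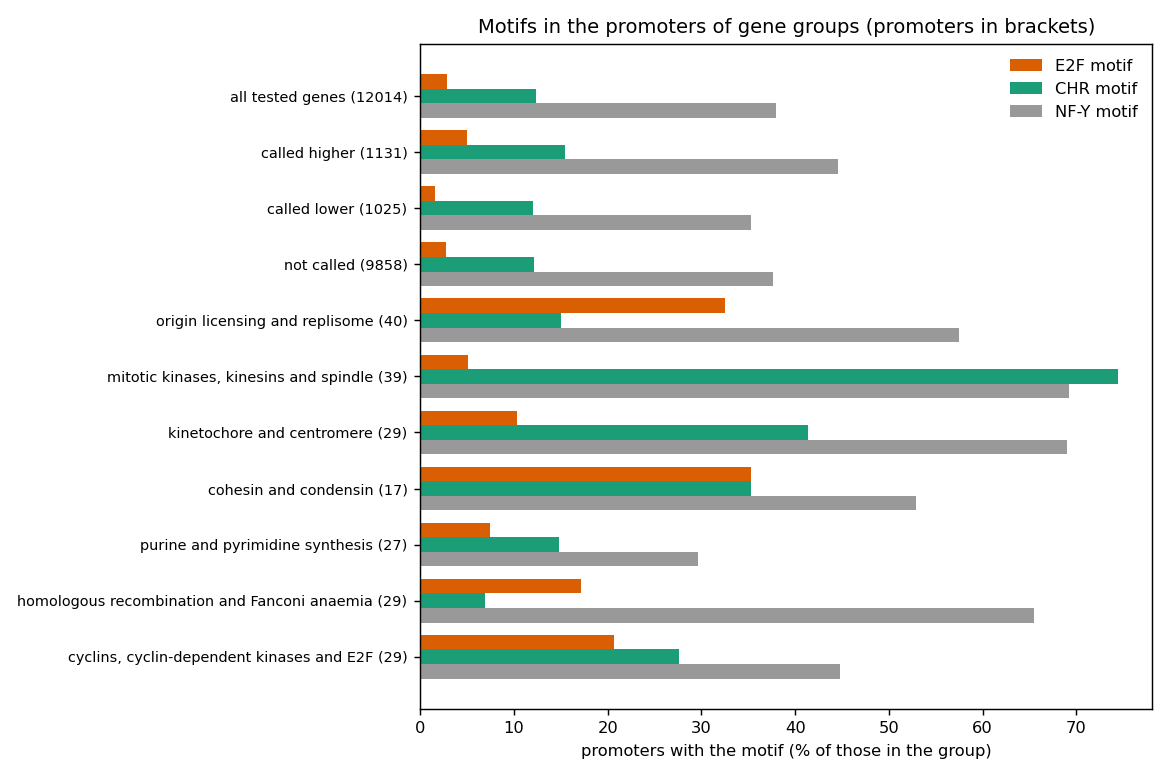
Share of promoters that hold each motif (x axis, percent) in groups of tested genes (y axis, number of promoters in brackets). E2F matches reach 32.5% in the DNA copying list and CHR matches 74.4% in the mitotic list, against 2.87% and 12.4% of all tested genes.

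Of 17328 genes tested with edgeR, 3178 (18.3%) were called at an adjusted p under 0.05, 1489 (8.59%) higher and 1689 (9.75%) lower in SB, and these shares are the background for every list below. An unadjusted p under 0.05 was reached by 6167 genes. The falls were the larger: genes called lower had a median log2 change of -2.83 and genes called higher one of 1.60, beside 0.11 over all genes tested. Below a log2 change of -3 stood 796 of the called lower genes, and above 3 stood 189 of the called higher ones. The 6 SB and 6 control libraries did not overlap in 3026 of the called genes, but calling favours such genes. The same count over all tested genes is not given here, and the 2 pieces of a spleen are not independent. Protein-coding genes gave 1383 higher and 1214 lower calls among 14294, while long intergenic RNAs gave 17 and 70 among 513. Calls numbered 818, 554 and 636 when control animal 1, 2 or 3 was left out, and 6409 without SB animal 2. Of 169 genes selected for naming, 68 were called in all 6 fits that left out 1 animal, 88 lost the call only where a control animal was left out, and 13 lost it without an SB animal, which is said where they are named. The sign of the change was kept in every one of these fits for the 169 genes. They were chosen from called genes, where SB and control animals tend not to overlap, so leaving out 1 animal could hardly reverse a sign.

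**Figure D2:**
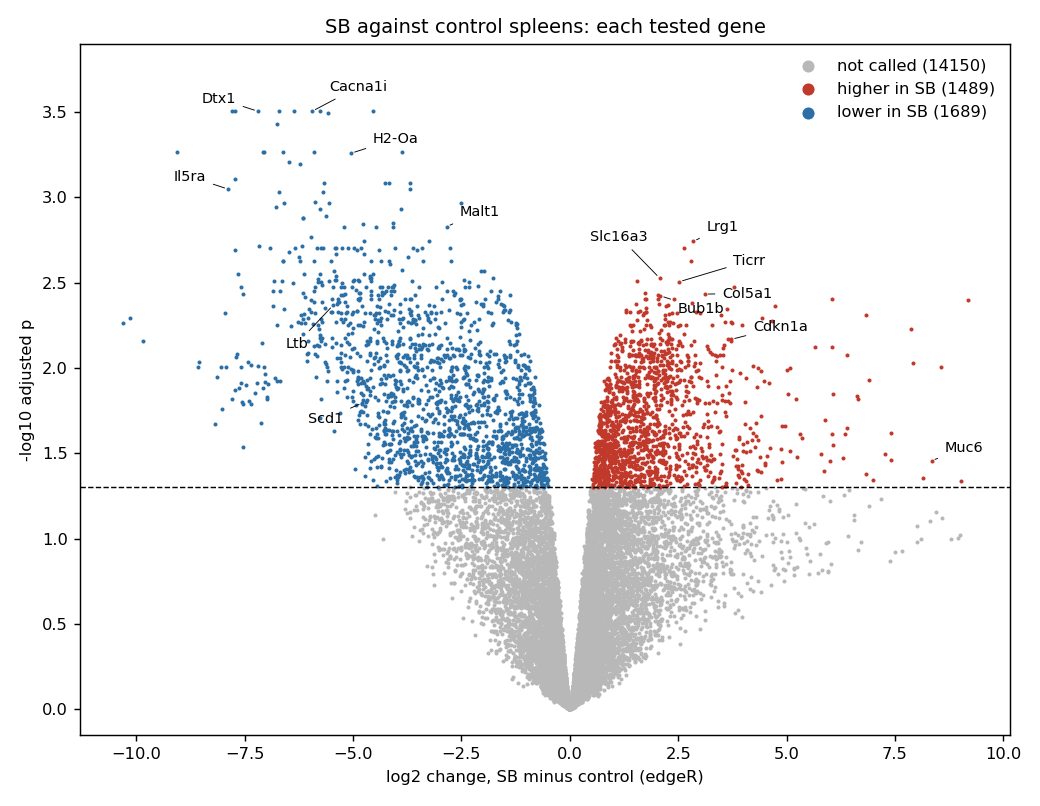
Each point is a tested gene, with its log2 change in SB minus control (x axis) and -log10 of its edgeR adjusted p (y axis); the dashed line is an adjusted p of 0.05. The 1689 lower genes reach further from 0 and to smaller adjusted p than the 1489 higher genes.

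Outside the blood cell marker lists, the 15 higher genes of smallest adjusted p mixed acute-phase, membrane and division genes. Lrg1, a secreted glycoprotein that modulates TGF-beta signalling in vessels, stood at 107, 136 and 97.996 CPM in SB and 16.2, 16.9 and 14.5 CPM in controls (log2 change 2.85, SE 0.19, edgeR adjusted p = 0.00181). Mt1, the metal-binding metallothionein 1, stood at 126, 123 and 148 CPM in SB and 21.9, 20.8 and 14.7 CPM in controls (log2 change 2.79, SE 0.21, edgeR adjusted p = 0.00237). Xk, a membrane protein that carries a blood group antigen on red cells, reached 92.7, 85.5 and 74.9 CPM in SB and 14.6, 14.7 and 11.5 CPM in controls (log2 change 2.63, SE 0.19, edgeR adjusted p = 0.00199). In all 3 genes every SB animal lay above every control, which the choice of the 15 genes required. Scamp1 (log2 change 1.74), a protein of recycling vesicles, Xpnpep1 (1.55), an aminopeptidase, Pak6 (3.78), a kinase, Plekhg5 (2.04), a nucleotide exchange factor, and Syce2 (2.40), named for its part in the synaptonemal complex of meiosis, were also among them, and the other members are given with their lists.

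The 15 lower genes of smallest adjusted p fell further. They were even among SB animals, which a ranking by adjusted p favours. Dtx1, a ubiquitin ligase of the Notch pathway, stood at 2.67, 2.85 and 1.84 CPM in SB and 369, 333 and 378 CPM in controls (log2 change -7.20, SE 0.26, edgeR adjusted p = 0.000312). Ccr7, the receptor that guides lymphocytes into the T zone, stood at 3.097, 3.79 and 2.96 CPM in SB and 164, 187 and 187 CPM in controls. Cacna1i, a T-type calcium channel subunit, stood at 1.88, 1.61 and 1.84 CPM in SB and 95.1, 118 and 115 CPM in controls (log2 change -5.94, SE 0.20, edgeR adjusted p = 0.000312). In all 3 genes the highest SB animal lay far below the lowest control, and a lack of overlap was required for the choice of the 15. Il5ra, the interleukin 5 receptor, had the largest fall of the 15, a log2 change of -7.88 with 0.114, 0.182 and 0.0728 CPM in SB and 24.1, 32.4 and 31.6 CPM in controls. Fcmr, the receptor for IgM (log2 change -7.04), Siglecg, an inhibitory sialic acid receptor (-5.69), P2ry10, a lysophospholipid receptor (-3.69), Enpp2, which makes lysophosphatidic acid (-4.17), Chst3, a chondroitin sulfotransferase (-6.47), and Cpm, a carboxypeptidase (-5.91), fell with them. Trim7, Klhl14 and Zfp831 fell by 4.54, 6.23 and 3.87 on the log2 scale. Many of these genes are known from lymphocytes, and the levels of B and T cell markers given above moved with them.

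The DNA copying machinery was higher in all SB spleens. Of 50 genes for origin licensing and the replisome, 37 were called higher (74%, background 8.59%) and 0 lower, with a median log2 change of 1.42. The median was 1.41, 1.44 and 1.30 in SB animals 1, 2 and 3. Ticrr, which helps to fire origins, stood at 43.6, 43.8 and 51.96 CPM in SB and 9.48, 8.19 and 6.63 CPM in controls (log2 change 2.52, SE 0.22, edgeR adjusted p = 0.00312). Pola1, whose promoter is shown above, stood at 113, 78.8 and 101 CPM in SB and 25.9, 24.6 and 19.95 CPM in controls (log2 change 2.06, SE 0.21, edgeR adjusted p = 0.00422). SB and control animals did not overlap in either gene. Wdhd1, which ties polymerase alpha to the helicase, stood at 118, 108 and 113 CPM in SB and 37.5, 34.99 and 27.8 CPM in controls (log2 change 1.76). Dna2, a nuclease that trims Okazaki fragments, stood at 71.3, 67.5 and 76.9 CPM in SB and 24.8, 20.9 and 19.5 CPM in controls (log2 change 1.73). Of the helicase genes that share the stem Mcm, 8 of 10 were called higher. The lowest fitted change in the list was 0.13. Without control animal 1, 2 or 3 the count was 17, 9 and 13, while the median stayed between 1.29 and 1.51 over the 6 fits that left out 1 animal.

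Regulators of the cycle moved less evenly. Of 40 cyclins, cyclin-dependent kinases, their inhibitors and E2F genes, 20 were called higher and 0 lower, with a median log2 change of 1.30. Tfdp1, the partner that E2F needs to bind DNA, stood at 126, 102 and 142 CPM in SB and 34.6, 28.8 and 26.7 CPM in controls (log2 change 2.04, SE 0.20, edgeR adjusted p = 0.00392). Foxm1, the forkhead factor of mitotic genes, stood at 80.2, 86.6 and 78.4 CPM in SB and 28.2, 24.7 and 20.2 CPM in controls (log2 change 1.75). Rbl1, the retinoblastoma relative p107, stood at 88.6, 88.5 and 84.1 CPM in SB and 43.9, 45.8 and 44.6 CPM in controls (log2 change 0.96). In each of these genes the SB levels lay close together. Cdkn1a, the inhibitor p21 and a target of p53, rose as well, at 188, 75.5 and 68.6 CPM in SB and 8.36, 8.45 and 8.33 CPM in controls (log2 change 3.72, SE 0.45, edgeR adjusted p = 0.00679), highest in SB animal 1. The list's count was 9, 3 and 5 without control animal 1, 2 or 3.

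Mitotic genes gave the highest share of higher calls among the lists of at least 10 tested genes. Of 44 mitotic kinases, kinesins and spindle genes, 39 were called higher (88.6%) and 0 lower, with a median log2 change of 2.01, and medians of 1.49, 2.34 and 2.00 in the 3 SB animals. Bub1b, a kinase-like protein of the spindle checkpoint, stood at 129, 128 and 146 CPM in SB and 36.5, 33.5 and 24.6 CPM in controls (log2 change 2.09, SE 0.20, edgeR adjusted p = 0.00377). Incenp, the scaffold of Aurora B, stood at 221, 247 and 250.3 CPM in SB and 80.9, 67.6 and 49.9 CPM in controls (log2 change 1.86). Kif2c, a microtubule depolymerase, stood at 46.4, 53.9 and 55.1 CPM in SB and 15.8, 10.7 and 9.51 CPM in controls (log2 change 2.11). Control animal 3 was the lowest control in all 3 genes, yet every SB animal lay above every control. Ckap5, whose promoter is shown above, showed a smaller change, 1.07, with 158, 157 and 166 CPM in SB and 80.7, 74.7 and 73.2 CPM in controls. Kinesins as a family had 15 of 34 tested members called higher and 2 lower. Without control animal 1, 2 or 3 the mitotic count was 22, 4 and 14, with list medians of 1.74 to 2.17 over the 6 fits that left out 1 animal.

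Kinetochore and centromere genes, which tie chromosomes to the spindle, followed with 27 of 33 called higher, 0 lower and a median log2 change of 1.68. Spc24, a subunit of the NDC80 complex, stood at 51.9, 45.2 and 47.4 CPM in SB and 13.2, 13.03 and 7.91 CPM in controls (log2 change 2.08, SE 0.25, edgeR adjusted p = 0.00668). Cenpi and Cenpp, of the inner kinetochore, and Nsl1, of the MIS12 complex, changed by 2.34, 2.46 and 1.58 on the log2 scale. Of 23 cohesin and condensin genes, 11 were called higher and 0 lower, led by the condensin subunits Ncapd2, Ncapd3, Ncaph and Ncapg, with log2 changes of 1.71, 1.52, 1.88 and 2.16. Ncapd2 stood at 352, 396 and 377 CPM in SB and 137, 117 and 89.4 CPM in controls (log2 change 1.71, SE 0.20, edgeR adjusted p = 0.00594). The kinetochore count was 12, 2 and 5, and the cohesin and condensin count 4, 0 and 3, without control animal 1, 2 or 3. The cohesin and condensin count was 7 without SB animal 3.

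Nucleotide synthesis supplies the building blocks of DNA. Of 31 purine and pyrimidine synthesis genes, 14 were called higher and 2 lower, with a median log2 change of 1.05. Tyms, thymidylate synthase, stood at 83.8, 88.97 and 86.4 CPM in SB and 21.4, 19.3 and 11.7 CPM in controls (log2 change 2.30, SE 0.26, edgeR adjusted p = 0.00534). Rrm1, the large subunit of ribonucleotide reductase, stood at 335, 463 and 340.1 CPM in SB and 131, 123 and 90.99 CPM in controls (log2 change 1.72). Paics, of purine synthesis, changed by 1.33. The 2 genes called lower serve nucleotide supply outside S phase. Rrm2b, the p53-inducible small subunit of the reductase, stood at 14.6, 18.2 and 20.3 CPM in SB and 37.2, 42.3 and 43.5 CPM in controls (log2 change -1.21, SE 0.20, edgeR adjusted p = 0.0129). Tk2, the mitochondrial thymidine kinase, stood at 53.02, 98.7 and 68.5 CPM in SB and 202, 204 and 199.96 CPM in controls (log2 change -1.46, SE 0.25, edgeR adjusted p = 0.0149). In both genes the highest SB animal lay below the lowest control. The count of higher genes was 3, 1 and 2 without control animal 1, 2 or 3, and 21 when SB animal 2 was left out, and that of lower genes was 0 without any of the controls.

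Repair by homologous recombination and the Fanconi anaemia pathway had 20 of 38 tested genes called higher and 0 lower, with a median log2 change of 0.98 and medians of 0.94, 1.03 and 1.11 in the 3 SB animals. Rad54l, a motor protein of homologous recombination, stood at 45.4, 40.1 and 49.3 CPM in SB and 10.7, 10.1 and 7.23 CPM in controls (log2 change 2.26, SE 0.23, edgeR adjusted p = 0.0043). Exo1, the nuclease that resects broken ends, stood at 31.6, 26.6 and 38.5 CPM in SB and 7.099, 5.46 and 4.16 CPM in controls (log2 change 2.53). In both genes every SB animal lay above every control. The p53 target list was mixed, with 7 of 30 called higher and 2 lower. Beside Cdkn1a, the higher members were led by Gtse1 (2.25), a microtubule protein that restrains p53, Polk (1.07), a bypass polymerase, and Sesn2 (0.98), a stress sensor upstream of mTORC1. Trp53inp1, which promotes p53-driven arrest and death, was called lower beside Rrm2b, at 73.5, 153 and 90.1 CPM in SB and 237, 244 and 236 CPM in controls. Its call was lost without SB animal 1 (log2 change -0.98) or 3 (-1.08). Mdm2, the main feedback target of p53, did not pass the test, with 87.1, 104 and 109 CPM in SB and 112, 105 and 103 CPM in controls. Without control animal 1, 2 or 3 the repair count was 9, 4 and 5 and the count of higher p53 targets was 1 in each fit, against 12 without SB animal 2, where 5 targets were called lower.

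**Figure D3:**
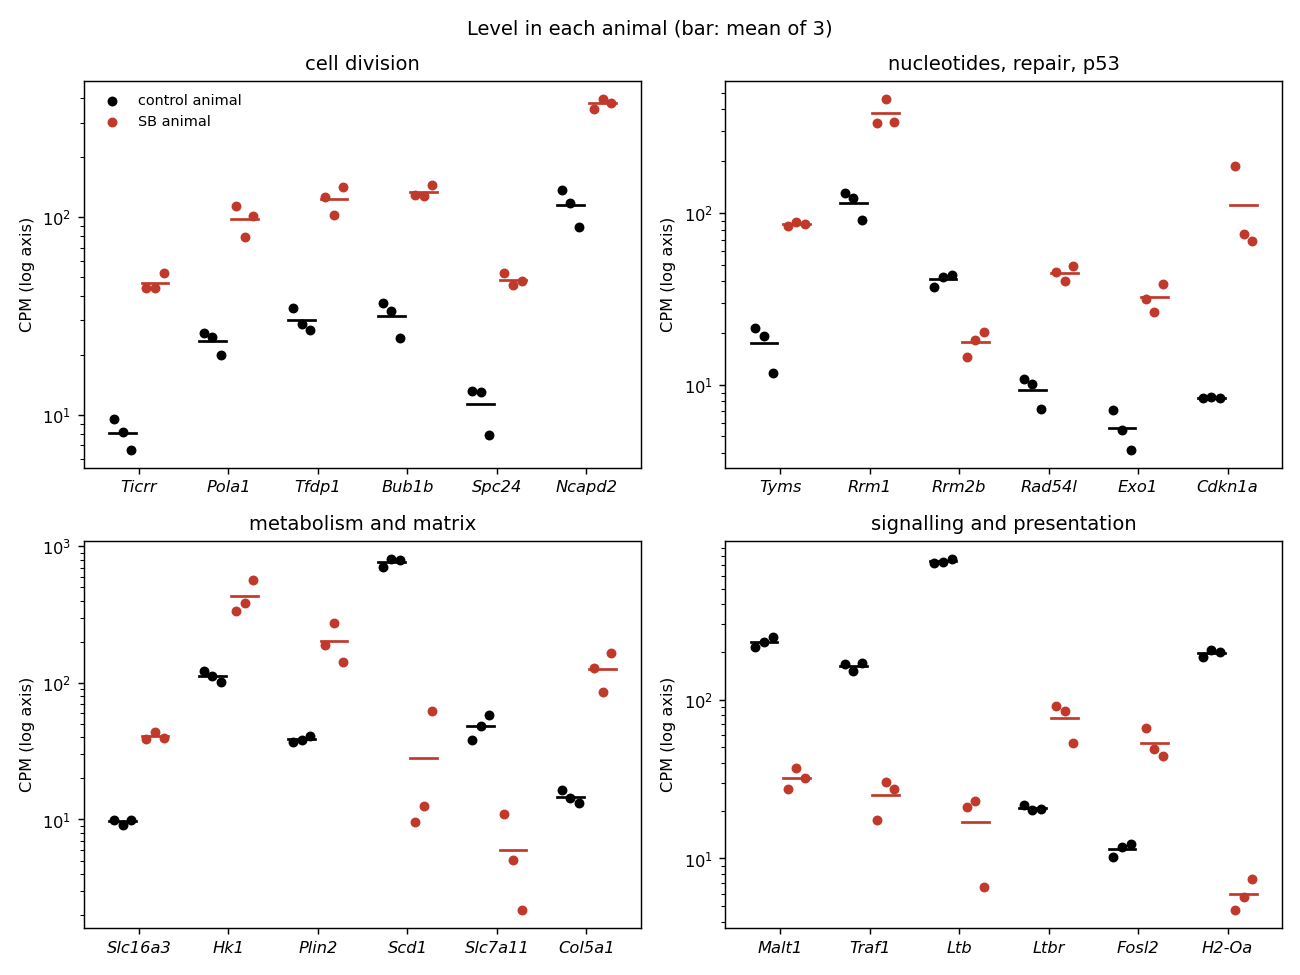
Level of 24 genes in each animal (y axis, CPM, log axis), controls in black and SB animals in red, with bars at the mean of 3 animals. In each of the 24 genes, all chosen from called genes, no SB animal lies within the range of the controls.

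The genes of protein turnover and nuclear pore traffic that passed the test rose by small amounts. Of 32 proteasome genes, 11 were called higher and 0 lower, with a median log2 change of 0.54, and none of the 32 had a fitted change below 0.10. Psmd1, of the regulatory particle, stood at 161, 166 and 181 CPM in SB and 81.97, 83.5 and 83.4 CPM in controls (log2 change 1.03, SE 0.13, edgeR adjusted p = 0.00728). Psmb7, a catalytic subunit of the core, stood at 90.7, 96.4 and 91.6 CPM in SB and 57.999, 59.9 and 54.6 CPM in controls (log2 change 0.69). Both genes show controls within a few CPM of each other. The interferon-inducible core subunits Psmb8 and Psmb9, which sit in the class I presentation list, did not pass the test and stood at 146, 155 and 43.3 CPM in SB and 251, 266 and 296 CPM in controls and at 123, 153 and 44.3 CPM in SB and 214, 221 and 276 CPM in controls. Nuclear pore and import genes had 14 of 36 called higher and 0 lower (median 0.63), with Nup85 at 158, 165 and 175 CPM in SB and 100.3, 91.6 and 87.9 CPM in controls (log2 change 0.83, SE 0.14, edgeR adjusted p = 0.0133). Ran, the GTPase that gives import its direction, changed by 0.98, and Ipo5, an importin, by 0.92. The proteasome and pore counts were both 0 without any 1 of the controls, and 18 and 25 without SB animal 2.

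Genes that charge transfer RNAs or answer amino acid shortage had 10 of 38 called higher and 2 lower. Asns, asparagine synthetase and a target of ATF4, stood at 45.04, 96.9 and 119 CPM in SB and 16.997, 15.6 and 14.3 CPM in controls (log2 change 2.47, SE 0.37, edgeR adjusted p = 0.0112), and Nars and Gars, synthetases for asparagine and glycine, changed by 0.65 and 0.74. Atf4 itself did not pass the test, with 314, 339 and 222 CPM in SB and 331, 338 and 307 CPM in controls. The members called lower were 2. Slc7a11, the cystine transporter and another ATF4 target, stood at 10.9, 5.03 and 2.16 CPM in SB and 38.1, 48.8 and 58.5 CPM in controls (log2 change -3.01, SE 0.60, edgeR adjusted p = 0.024), and Eif2ak3, the endoplasmic reticulum stress sensor PERK, at 33.5, 42.5 and 35.9 CPM in SB and 80.6, 94.8 and 85.8 CPM in controls (log2 change -1.22, SE 0.16, edgeR adjusted p = 0.00794). In the list for the unfolded protein response and translocation into the endoplasmic reticulum, 13 of 49 were called higher and 2 lower. The higher members with the smallest adjusted p serve glycosylation, import and folding rather than the stress signal: Rpn2 (0.92) and Ddost (0.86) of the oligosaccharyltransferase, Ssr3 (0.85) of the translocon and P4hb (1.23), a disulfide isomerase. Pdia4, another disulfide isomerase, went the other way, at 125, 137 and 137 CPM in SB and 372, 337 and 338 CPM in controls (log2 change -1.39, SE 0.14, edgeR adjusted p = 0.00458), as did Syvn1, the ubiquitin ligase HRD1, at 57.2, 101 and 100.1 CPM in SB and 335, 324 and 318 CPM in controls (log2 change -1.92). The 10 plasma cell markers summed to 443 to 1040 CPM in SB and 3510 to 6470 in controls, with 3 called lower and 0 higher. Their part in the changes of this list was not tested. The counts of higher genes in both lists were 0 without any 1 of the controls, and 23 and 20 without SB animal 2; that of the transfer RNA list was 6 without SB animal 3.

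Ribosomal protein genes gave fewer calls than the background. Of 76 cytosolic ribosomal protein genes, 2 were called higher and 0 lower, with a median log2 change of 0.16, and the medians of the 3 SB animals were 0.46, -0.34 and 0.16. The genes called were Rpl30, at 149, 93.03 and 102 CPM in SB and 36.8, 35.4 and 35.2 CPM in controls (log2 change 1.68, SE 0.21, edgeR adjusted p = 0.00737), and Rps2, at 248, 217 and 284 CPM in SB and 129, 93.3 and 133 CPM in controls (log2 change 1.08), and reads of ribosomal protein genes may be shared with their pseudogenes. Ribosome biogenesis had 2 of 51 called higher, Bysl (1.09) and Gnl3 (1.17), both of which act in early subunit assembly or its control. Here SB animal 2 stood apart: its list median was -0.12 against 0.86 and 0.63, and without it 36 of the 51 genes were called higher. The call of Gnl3 was lost without SB animal 1 (1.00) or 3 (1.07). Splicing factors had 1 of 55 called higher, Srsf4 (0.71), and 1 lower, Clk4 (-0.50), a kinase of such factors, and 19 called higher without SB animal 2. Clk4 was not called without SB animal 1 (-0.47). Ribosomal protein genes called higher numbered 13 without SB animal 2.

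In glycolysis and the pentose phosphate pathway, 10 of 35 genes were called higher and 2 lower, with a median log2 change of 0.77. Slc16a3, the lactate exporter MCT4, stood at 39.2, 43.4 and 39.4 CPM in SB and 9.87, 9.16 and 9.99 CPM in controls (log2 change 2.07, SE 0.17, edgeR adjusted p = 0.00297). Hk1, hexokinase 1, stood at 335, 388 and 568 CPM in SB and 123, 113 and 101 CPM in controls (log2 change 1.94, SE 0.24, edgeR adjusted p = 0.00723). Tpi1 and Gapdh changed by 1.37 and 1.33, and both have processed copies that may share reads. The genes called lower were enolases. Eno2 stood at 2.22, 1.97 and 0.558 CPM in SB and 10.2, 10.4 and 12.4 CPM in controls (log2 change -2.80, SE 0.55, edgeR adjusted p = 0.0228) and Eno3 at 33.1, 26.2 and 31.3 CPM in SB and 53.5, 51.9 and 51.7 CPM in controls (log2 change -0.79). The common Eno1 did not pass the test, with 126, 153 and 209 CPM in SB and 94.1, 94.95 and 97.02 CPM in controls. The hypoxia response list had 6 of 30 called higher and 1 lower. Its higher members were led by Lox, a collagen crosslinking enzyme, at 23.8, 51.3 and 69.6 CPM in SB and 4.24, 2.86 and 3.81 CPM in controls (log2 change 3.73, SE 0.46, edgeR adjusted p = 0.0069), and by Mxi1 (1.44), Loxl2 (3.02) and Angptl4 (2.20). Vegfa, a classical target of hypoxia, did not pass the test, with 39.4, 40.2 and 95.4 CPM in SB and 41.8, 39.7 and 47.01 CPM in controls. Epas1, which encodes HIF-2 alpha, was the member called lower, at 49.5, 73.4 and 57.1 CPM in SB and 114, 127 and 124 CPM in controls (log2 change -1.02, SE 0.19, edgeR adjusted p = 0.018). Without control animal 1, 2 or 3 the counts of higher genes were 2, 1 and 1 in both lists, and those of lower genes were 0.

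Of 36 genes for fatty acid synthesis and lipid storage, 7 were called higher and 1 lower. Plin2, the coat of lipid droplets, stood at 191, 274 and 142 CPM in SB and 37.03, 38.3 and 40.8 CPM in controls (log2 change 2.39, SE 0.27, edgeR adjusted p = 0.00543), and Fads1, a desaturase of polyunsaturated fats, at 209, 175 and 110.2 CPM in SB and 47.7, 44.6 and 41.9 CPM in controls (log2 change 1.88). Fads1 lies beside Fads2 and Fen1 on chromosome 19, and the tested genes from Fads2 to Fen1 were all called higher. Mlxipl, the carbohydrate-sensing factor ChREBP, was low but separated, at 1.08, 2.06 and 2.31 CPM in SB and 0.1203, 0.0975 and 0.119 CPM in controls (log2 change 3.97). Fabp4, a fatty acid carrier of fat cells, vessels and macrophages, stood at 31.5, 45.2 and 139 CPM in SB and 4.51, 3.996 and 4.37 CPM in controls (log2 change 4.06, SE 0.62, edgeR adjusted p = 0.0115). Adipoq, the defining fat cell marker, had 2, 0 and 2 counts in SB animals and 6, 8 and 13 in controls. Endothelial markers summed to 1390, 3290 and 1750 CPM in SB animals 1, 2 and 3 and to 830 to 925 in controls, with 4 of 14 called higher and 1 lower. Monocyte and macrophage markers summed to 1250, 14100 and 1250 CPM against 1390 to 1480. Both sums were highest in SB animal 2, and Fabp4 in SB animal 3. Which cells gave the Fabp4 reads was not tested. Scd1, which makes monounsaturated fat, fell the most in the list, from 708, 811 and 799 CPM in controls to 9.55, 12.5 and 62.1 CPM in SB (log2 change -4.78, SE 0.83, edgeR adjusted p = 0.016). Cholesterol synthesis and efflux gave few calls, with 0 of 36 called higher and 1 lower, Hmgcs1 (-0.79), an early enzyme of the pathway, and 9 called lower without SB animal 2. The SB animals differed here, with list medians of -0.43, 0.08 and -0.30 in SB animals 1, 2 and 3. The summed level was 2190, 16400 and 2800 CPM in these animals and 3220 to 3540 in controls. Folate and one-carbon metabolism had 5 of 24 called higher and 1 lower. Mthfd1, a folate enzyme of the cytosol, stood at 136, 128 and 193 CPM in SB and 60.7, 60.6 and 61.8 CPM in controls (log2 change 1.32, SE 0.20, edgeR adjusted p = 0.0106), and Aldh1l2, a mitochondrial folate enzyme, was called lower, at 0.142, 0.212 and 0.146 CPM in SB and 1.53, 1.01 and 1.55 CPM in controls (log2 change -3.01). Mtr and Gcsh, of methionine synthesis and glycine cleavage, changed by 1.15 and 1.66. Slc19a1, a folate carrier (1.62), was not called without SB animal 1 (1.27) or 3 (1.56). The counts of higher lipid genes were 3, 1 and 2, and of higher folate genes 0 each, without control animal 1, 2 or 3. Without SB animal 2 they were 13 and 11, and without SB animal 1 the lipid count was 12.

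The NF-kappa-B pathway gave the largest share of lower calls among the programme lists of at least 10 tested genes, 17 of 41 (41.5%, background 9.75%), with 1 higher and a median log2 change of -0.58. Members of smallest adjusted p serve antigen receptors, TNF receptors and the alternative pathway. Malt1, a protease that links antigen receptors to the kinase complex, stood at 27.3, 37.1 and 32.2 CPM in SB and 213, 229.5 and 249 CPM in controls (log2 change -2.84, SE 0.18, edgeR adjusted p = 0.00148). Traf1, an adaptor of TNF receptors, stood at 17.5, 30.3 and 27.4 CPM in SB and 168, 151 and 170.1 CPM in controls (log2 change -2.70). Nfkb2 and Relb, the pair of the alternative pathway, stood at 42.8, 57.98 and 66.3 CPM in SB and 214, 218 and 232 CPM in controls and at 18.5, 36.6 and 28.5 CPM in SB and 133, 139 and 144 CPM in controls. The SB and control levels of these genes were far apart in every animal. The shared core was not called: Rela stood at 131, 142 and 148 CPM in SB and 197, 195 and 195 CPM in controls, Chuk at 70.3, 98.3 and 96.03 CPM in SB and 113, 107 and 117 CPM in controls and Ikbkg at 93.2, 66.3 and 89.7 CPM in SB and 77.01, 83.4 and 86.9 CPM in controls, and in Rela and Chuk the SB animals lay below all controls by less than in the genes above. Ripk1, the kinase below the TNF receptor, was called higher at 37.6, 49.1 and 54.7 CPM in SB and 24.6, 23.7 and 24.7 CPM in controls (log2 change 0.95). Genes with the stem Traf had 6 of 10 called lower. The count of lower genes was 10, 7 and 8 without control animal 1, 2 or 3.

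TNF superfamily ligands and receptors had 12 of 42 called lower and 2 higher, with a median log2 change of -1.29. Lymphotoxin beta (Ltb), which with lymphotoxin alpha (Lta) keeps the white pulp in order, stood at 21.2, 22.8 and 6.63 CPM in SB and 724, 738 and 769 CPM in controls (log2 change -5.46, SE 0.54, edgeR adjusted p = 0.00429), and Lta at 0.597, 1.61 and 0.534 CPM in SB and 35.9, 36.4 and 40.3 CPM in controls (log2 change -5.36). Their receptor Ltbr went the other way, at 90.6, 84.9 and 52.98 CPM in SB and 21.8, 20.1 and 20.4 CPM in controls (log2 change 1.88, SE 0.24, edgeR adjusted p = 0.00737). Ltb, Tnf and Lta are neighbours on chromosome 17, and Tnf was called lower too, at 2.36, 9.27 and 5.05 CPM in SB and 20.4, 20.7 and 22.9 CPM in controls. Tnfrsf13c, the BAFF receptor of B cells, stood at 6.85, 14.1 and 3.52 CPM in SB and 269.6, 339 and 338 CPM in controls (log2 change -5.28), and Tnfrsf19, a receptor of the family known from epithelium, at 0.0284, 0.151 and 0.0485 CPM in SB and 4.03, 3.87 and 4.34 CPM in controls (log2 change -5.71). Tnfrsf1a, the main TNF receptor, was higher (1.47) but not called without SB animal 1 (1.51). The list's lower count was 5, 4 and 4 without control animal 1, 2 or 3, and 20 when SB animal 2 was left out, whose list median was -0.62 against -2.01 and -1.70.

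In 2 more signalling lists some members fell. The Ras-MAPK list had 9 of 41 called lower and 1 higher, and the lower genes of smallest adjusted p were these 4: Rasal1 (-4.90), Rasa3 (-1.50) and Rasa2 (-1.63) switch Ras off, and Rras2 (-3.01) is a Ras relative. Rasal1 stood at 1.99, 1.24 and 0.655 CPM in SB and 42.5, 35.9 and 37.5 CPM in controls (log2 change -4.90, SE 0.46, edgeR adjusted p = 0.00392), and Spred2, an inhibitor, was the higher member at 33.95, 23.02 and 47.1 CPM in SB and 12.5, 10.3 and 9.37 CPM in controls (log2 change 1.69). The list median, 0.13, was close to the 0.11 of all genes. Immediate early genes went both ways, 4 higher and 6 lower of 25. Fosl2, of the AP-1 family, stood at 66.6, 48.7 and 44.2 CPM in SB and 10.2, 11.8 and 12.4 CPM in controls (log2 change 2.22, SE 0.23, edgeR adjusted p = 0.00434), and Fos and Ier3 changed by 2.19 and 2.53. Nr4a2 was called higher (3.30) but not without SB animal 1 (2.31) or 3 (3.43). Klf2, a factor of lymphocyte quiescence, stood at 22.8, 73.4 and 32.5 CPM in SB and 338, 366 and 321 CPM in controls (log2 change -2.99, SE 0.46, edgeR adjusted p = 0.0117), Btg1, an antiproliferative gene, at 54.9, 127 and 55.8 CPM in SB and 545, 588 and 571 CPM in controls (log2 change -2.84), and Ier5 and Zfp36 changed by -2.04 and -1.82. Egr1, a classical member, did not pass the test, with 129, 26.6 and 19.5 CPM in SB and 66.1, 70.004 and 60.5 CPM in controls. Without control animal 1, 2 or 3 the lower counts were 3, 2 and 2 in the Ras-MAPK list and 2 each in the immediate early list.

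Class II antigen presentation showed how far the SB spleens differed among themselves. Of 19 genes, 6 were called lower and 0 higher, and the list median was -4.52, -0.18 and -4.31 in SB animals 1, 2 and 3. The main class II chain H2-Aa stood at 69.3, 4387 and 66.3 CPM in SB and 4830.4, 5609 and 5479 CPM in controls, and the invariant chain Cd74 at 162, 10005 and 157 CPM in SB and 8935, 10574 and 10397 CPM in controls. Neither passed the test, and SB animal 2 lay near the controls. H2-Oa and H2-Ob, which restrain peptide loading mainly in B cells, were low in all 3: H2-Oa stood at 4.72, 5.76 and 7.38 CPM in SB and 185, 206 and 198 CPM in controls (log2 change -5.04, SE 0.23, edgeR adjusted p = 0.00055) and H2-Ob at 24.8, 30.2 and 8.35 CPM in SB and 652, 719 and 695 CPM in controls (log2 change -5.03). H2-Eb2 (-4.86) and H2-DMb2 (-5.13) followed, with reads that close copies may share. Monocyte and macrophage markers summed to 1250, 14100 and 1250 CPM in the 3 SB animals, against 1390 to 1480 in controls, and dendritic markers to 1980 CPM in SB animal 2, 170 to 369 in the others and 932 to 1060 in controls. Without SB animal 2, 17 of the 19 class II genes were called lower, and without control animal 1, 2 or 3 the count was 4, 3 and 4. Class I presentation had 0 of 25 called in either direction, with medians of -0.61, -0.30 and -1.43 and 4 members at an unadjusted p under 0.05. The interferon gamma GTPases and Ifi200 genes had 1 of 30 called lower, Ifi208 (-4.08), and medians of -2.15, 0.57 and -1.20, with 11 called lower without SB animal 2. Lysosomal genes showed the same animal apart, with medians of -0.17, 1.10 and -0.16. Of 62 lysosomal genes, 2 were called higher, among them Gla (1.41), which cleaves sugar from glycolipids. Tfeb (-2.11), the main regulator of lysosome genes, and Ctso (-1.52), a cathepsin, were called lower, with 16 called lower without SB animal 2 and 6 called higher without SB animal 1 or 3. Ctso was not called without SB animal 1 (-1.47).

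**Figure D4:**
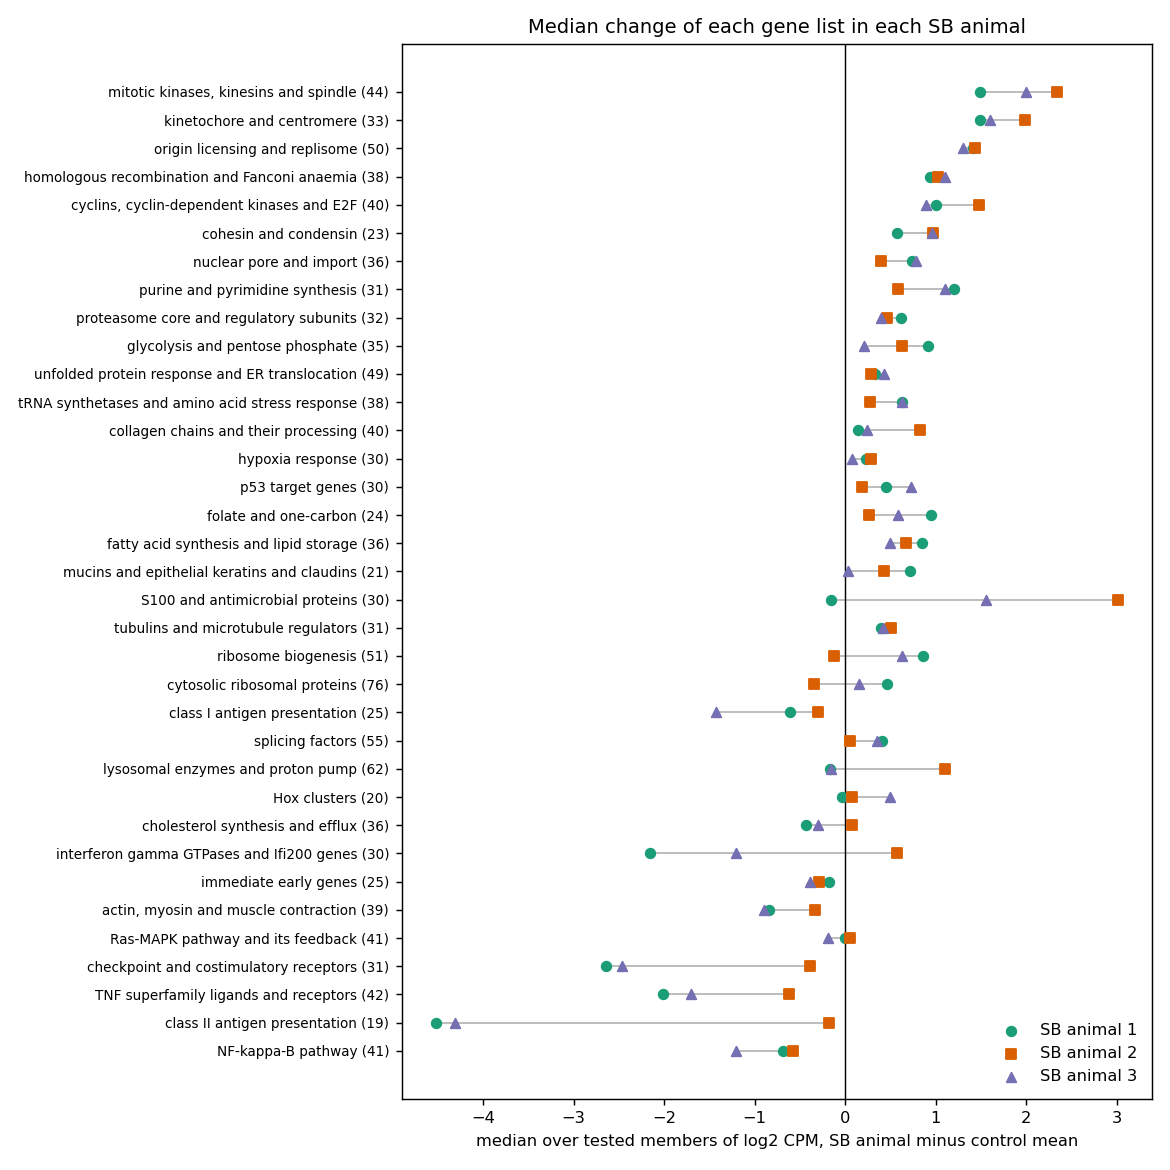
Median over the tested members of each list of the log2 CPM difference between an SB animal and the control mean (x axis), with 1 marker for each SB animal and lists on the y axis (tested members in brackets). The cell division lists stand at 0.57 or above in all 3 animals, while class II presentation runs from -4.52 to -0.18.

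Checkpoint and costimulatory receptors had 7 of 31 called lower and 0 higher. Btla, an inhibitory receptor of lymphocytes, stood at 16.2, 23.9 and 10.97 CPM in SB and 459, 536 and 532 CPM in controls (log2 change -4.90, SE 0.35, edgeR adjusted p = 0.00203). Cd200, a ligand that calms myeloid cells, and Pdcd1lg2, the ligand PD-L2, changed by -2.03 and -2.91, while Cd274, which encodes PD-L1, did not pass the test at 16.02, 40.1 and 38.7 CPM in SB and 77.3, 69.6 and 93.5 CPM in controls. Cd2, an adhesion molecule of T cells (-4.65), was not called without SB animal 1 (-4.28). The list median was -0.39 in SB animal 2 against -2.64 and -2.46, and 18 of 31 were called lower without it, against 1 without any 1 of the controls. The 8 tested Gimap GTPases, which support lymphocyte survival, were all called lower, with a median of -4.13 and a summed level of 101 to 282 CPM in SB against 2520 to 2700 in controls.

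Matrix and structural genes were divided. Of 40 collagen and collagen-processing genes, 8 were called higher and 1 lower. Col5a1, a fibril-forming chain, stood at 129, 85.7 and 166 CPM in SB and 16.5, 14.5 and 13.1 CPM in controls (log2 change 3.11, SE 0.28, edgeR adjusted p = 0.00368). Col4a1 and Col4a2, the paired chains of basement membrane that share 1 promoter region, stood at 287, 199 and 401 CPM in SB and 59.5, 72.1 and 65.3 CPM in controls and at 222, 193 and 343 CPM in SB and 54.7, 57.95 and 55.3 CPM in controls (log2 changes 2.17 and 2.17). Every SB animal exceeded every control in these 3 genes. The main fibril collagens did not pass the test: Col1a1 stood at 25.1, 126 and 78.8 CPM in SB and 56.6, 53.5 and 53.7 CPM in controls and Col3a1 at 18.5, 92.5 and 36.1 CPM in SB and 42.4, 38.8 and 45.8 CPM in controls. P4ha3, a collagen prolyl hydroxylase, was the lower member, at 0.199, 0.212 and 0.437 CPM in SB and 1.74, 1.69 and 2.59 CPM in controls. Endothelial markers summed higher in SB, as given above, and fibroblast and smooth muscle markers to 184 to 621 CPM against 574 to 667. The collagen count was 4, 3 and 3 without control animal 1, 2 or 3, and 13 when SB animal 1 was left out.

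Actin, myosin and contraction genes had 8 of 39 called lower and 2 higher, with a median log2 change of -0.77. Several of the lower members are known from muscle: Myh11, the smooth muscle myosin, stood at 3.15, 10.7 and 7.28 CPM in SB and 45.2, 49.96 and 66.8 CPM in controls (log2 change -2.94, SE 0.47, edgeR adjusted p = 0.013), Cnn3, a calponin, at 11.1, 28.4 and 20.5 CPM in SB and 114, 134 and 134 CPM in controls (log2 change -2.67), and Pdlim3 and Myl4 changed by -3.51 and -3.74. Vcl, which links actin to adhesions, was higher at 56.97, 53.7 and 186 CPM in SB and 14.4, 15.8 and 17.4 CPM in controls (log2 change 2.64), as was Actn4, an actin crosslinker, at 364, 291 and 395 CPM in SB and 183, 178 and 180.01 CPM in controls (log2 change 0.95). Myh11 is also on the list of fibroblast and smooth muscle markers. Among tubulins and microtubule regulators, 6 of 31 were called higher and 3 lower. Tubb4b stood at 218, 298 and 268 CPM in SB and 119, 102 and 81.8 CPM in controls (log2 change 1.37, SE 0.21, edgeR adjusted p = 0.0113), Tuba1b changed by 1.26, Tubg1 by 1.06 and Stmn1, which frees tubulin in dividing cells, by 2.30. Tuba1a, at 17.2, 16.2 and 15.6 CPM in SB and 30.7, 30.7 and 30.1 CPM in controls, and Stmn2, at 0.654, 0.727 and 0.315 CPM in SB and 8.33, 8.54 and 7.52 CPM in controls, both known from neurons, were called lower (-0.90 and -3.85), and tubulin genes are alike enough to share reads. Map4, the remaining lower member (-0.86), was not called without SB animal 1 (-0.81) or 3 (-0.73). The contraction list's lower count was 2 without any 1 of the controls and 16 without SB animal 2, and the tubulin list's higher count was 1, 0 and 0, and 11, in the same fits.

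Secreted defence proteins also varied between SB animals. Of 30 tested S100 and antimicrobial genes, 6 were called higher and 2 lower, and the list median was -0.16, 3.02 and 1.56 in SB animals 1, 2 and 3. Hp, the haemoglobin-binding haptoglobin, stood at 39.5, 75.3 and 106 CPM in SB and 12.3, 9.65 and 7.94 CPM in controls (log2 change 2.88, SE 0.41, edgeR adjusted p = 0.00939), and S100a1 at 62.99, 36.3 and 31.8 CPM in SB and 13.7, 14.8 and 12.7 CPM in controls (log2 change 1.67). The higher Ctsg (4.04), Mpo (3.22) and Prtn3 are granule genes that also stand on the granulocyte marker list, and Mpo was not called without SB animal 3 (2.97). Orm2, an acute-phase protein, was called lower at 0.0568, 0.0909 and 0.0728 CPM in SB and 3.07, 3.25 and 2.47 CPM in controls (log2 change -5.25), with S100a3 (-2.55). Without SB animal 1, 15 of the 30 genes were called higher, and without control animal 1, 2 or 3 the count was 3, 0 and 0. Mucins, keratins and claudins had 5 of 21 called higher and 2 lower. Muc6, a stomach mucin, stood at 37.99, 4.27 and 479 CPM in SB and 0.511, 0.487 and 0.595 CPM in controls (log2 change 8.34, SE 1.93, edgeR adjusted p = 0.0349), and Muc13, a membrane mucin, at 605, 10.1 and 316 CPM in SB and 7.67, 5.36 and 2.91 CPM in controls (log2 change 5.87). The order of SB animals differed between these mucins. Muc13 and Tjp1 (2.44), a tight junction protein, were not called without SB animal 1 (4.94 and 2.5) or 3 (5.85 and 1.76). Krt20, a keratin, was called lower at 0.0568, 0 and 0 CPM in SB and 2.02, 2.63 and 2.94 CPM in controls, and so was Cldn4, a claudin, at 0.0284, 0 and 0 CPM in SB and 0.301, 0.357 and 0.387 CPM in controls. Markers of mesothelium and epithelium summed to 9.25 to 192 CPM in SB, the highest in SB animal 1, and to 27.3 to 28.8 in controls. The high sum in SB animal 1 came from Krt18, with 5671, 18 and 9 counts in SB and 34, 22 and 38 in controls. Krt8 had 11, 2 and 2 counts in SB and 3, 7 and 8 in controls. Of the 7 tested markers 0 were called, and their median was -1.16, -0.73 and -1.63 in the 3 SB animals. The mucin list's higher count was 0 without any 1 of the controls, and 2 and 1 without SB animal 1 and 3.

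**Figure D5:**
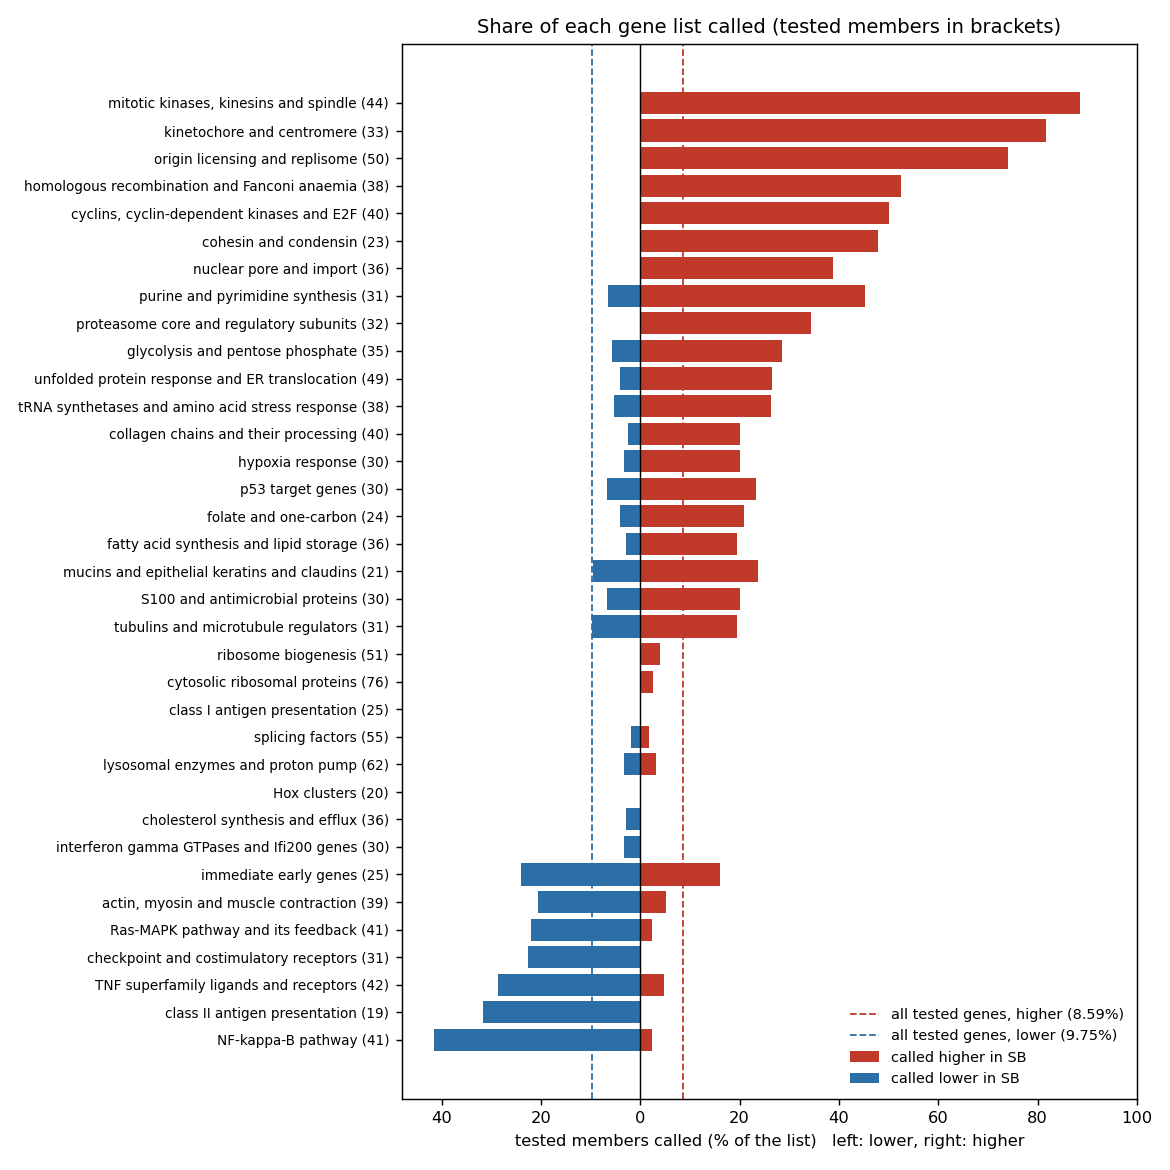
Share of tested members called higher (red, to the right) or lower (blue, to the left) in SB for the 35 lists described, with tested members in brackets; dashed lines are the shares over all tested genes, 8.59% higher and 9.75% lower. Mitotic genes reach 88.6% higher and the NF-kappa-B pathway 41.5% lower.

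The remaining lists stayed nearer the background. Nuclear-encoded oxidative phosphorylation had 12 of 76 called higher and 0 lower with a median log2 change of 0.39, and mitochondrial ribosomal proteins 6 of 78 and 0, with 0.36. Type I interferon stimulated genes had 3 of 48 higher and 1 lower, and medians of -1.09, 1.32 and -0.01 in the 3 SB animals. The Wnt list had 5 of 49 higher and 9 lower, the Notch list 2 of 36 and 5, and the BMP and TGF-beta list 4 of 49 and 6. The Hox clusters, which pattern the embryo and mark blood stem cells, had 0 of 20 tested genes called in either direction, with 1 higher and 1 lower at an unadjusted p under 0.05, and the summed level was 917, 58.4 and 231 CPM in SB against 53.4 to 61.4 in controls. SB animals 1 and 3 thus lay above the controls in that sum.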

How the data were processed

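Messenger RNA of 12 spleen pieces was sequenced after poly-A selection with an unstranded kit, per the labels' protocols. Deposited were whole-number read counts per Ensembl gene, which the values show to be unnormalised. Per the submitters' processing notes, STAR 2.5.3a and limma were used, with builds mm10 and GRCm38, and their roles are not stated. The kit keeps no strand, so reads of antisense partners mix, and near-identical genes may share reads. Of 32121 genes, 32026 were matched to GENCODE M21 (GRCm38) for symbols, and the 95 others held at most 0.027% of a library. Entries without a gene name numbered 0.

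For each spleen the counts of its pieces were added, since pieces of a spleen are not independent. SB and control animals were compared with edgeR 4.0.16 in R 4.3.3 (TMM, filterByExpr, robust fit, the newer quasi-likelihood method, two-sided, Benjamini-Hochberg adjusted p under 0.05). The common biological coefficient of variation was 49.7%. Standard errors (SE) were taken from the F statistic. With 3 animals a genotype, p-values measure the spread between these animals.

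The comparison and the gene lists (66 programme lists and 16 marker lists) were chosen with earlier results of these data known. A programme list with at least 10 tested members is described when its share of higher or lower calls was at least 2 times that of all genes, or under 0.5 times it in both directions. This gave 35 lists. Named genes are up to 4 called members per direction and list of smallest adjusted p, and per direction the 15 called genes of smallest adjusted p with a mean of at least 10 CPM in a genotype, no overlap between animals and no place on a marker list, leaving out predicted genes, pseudogenes and antigen receptor segments. Members that were not called are given as values, and a few further called genes (Relb, Tnf, Prtn3, Fads2, Fen1) were named after their values were seen. A few genes that this rule names are not reported here. Promoters are RefSeq sequences, 1 per gene, and the motifs were chosen with the calls known. Alternatives were other normalisations, filters, tools, single pieces and left-out animals.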

Additional observations from a re-analysis of the deposited data

How the results depend on the processing

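The counts of 3178 genes called, 1489 higher and 1689 lower stayed within 1.5 times under the other normalisations, without the low-count filter, with limma voom, with a single piece of each spleen and with the earlier quasi-likelihood method, an alternative chosen after seeing the data (2961 called). DESeq2 called 5546 genes, 2777 higher and 2769 lower. A minimum of 10 CPM in 3 animals left 1018 lower calls among 10325 genes tested. SB animal 3 alone against the controls gave 11788 calls, 5872 higher and 5916 lower, where its spread is assumed to be that of the controls. Leaving out 1 animal gave 554 to 6409 calls, 86 to 3085 higher and 468 to 3324 lower; the low values came from leaving out a control animal and the high ones from leaving out SB animal 2, and the cause was not tested. Of the 3178 genes, 540 to 807 remained called without a control animal and 3095 without SB animal 2. Over all 17 alternatives, 0 of 2854 values of the 169 named genes reversed in sign and 328 lost the call. The choice of these genes from those called leaves little room for a reversal. No paired analysis was possible because the labels give nothing that ties SB mice to particular control mice. At 30692103 to 39168970 counts an animal, changes in genes of a few counts, such as Cldn4 and S100a3, are the least certain.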

Other observations

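Calls were unevenly placed along the genome. With antigen receptor segments counted, the share of tested genes called lower was 17.0% on chromosome 6, 15.6% on chromosome 12 and 5.91% on chromosome 2. Of 191 tested immunoglobulin V genes, 110 were called lower and 0 higher, and their part in these shares was not tested. With antigen receptor segments left out, 19 runs of at least 4 neighbouring tested genes were all called lower and 7 all called higher. The longest lower run held 9 genes around Satb1, a chromatin organiser of T cells, on chromosome 17 (51736187 to 53463321, GRCm38), with a median log2 change of -5.13. Gimap genes formed lower runs of 7 and 4 genes on chromosome 6, and a run of 6 genes on chromosome 12 held Serpina1e, Serpina9, Serpina11 and Serpina12, with a median of -4.92. The longest higher run held 8 genes from Traip, a replication-linked ubiquitin ligase, to Cdhr4 on chromosome 9 (107950136 to 108002404), with a median of 3.01. A higher run of 4 genes on chromosome 15, from Nfe2, an erythroid and megakaryocyte factor, to Itga5, had a median of 2.41. Without strand, transcripts that run past a gene's end add reads to its neighbours, and their part in these runs was not tested.

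Families of genes that share a symbol stem, 167 with at least 10 tested members, were also counted. Genes with the stem Eif, which holds translation initiation factors and also their kinases and inhibitors, had 13 of 54 called higher and 1 lower. The lower one was Eif2ak3, the stress sensor PERK, and the higher ones included the kinase gene Eif2ak2 and the inhibitor gene Eif4ebp1. G protein-coupled receptors with the stem Gpr had 9 of 40 lower and 2 higher, chemokine receptors (Ccr) 5 of 11 lower and 0 higher, and Wnt ligands 4 of 11 lower and 0 higher. Zinc finger genes (Zfp) gave 5 higher and 27 lower calls of 346, both under the background shares of 8.59% and 9.75%. General transcription factors (Gtf) and TBP-associated factors (Taf), 22 tested genes each, and 12 Toll-like receptors had 0 calls by edgeR in either direction.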
